A study of Mus musculus with 10 samples.

Results

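The chemokines, the interleukins and their receptors carried by a mouse cDNA array were described in the urinary bladder after challenge with bacterial lipopolysaccharide or substance P, with and without the thrombin receptor PAR1. The members were all probes whose gene symbol began with the chemokine, chemokine receptor or interleukin stems, together with the leukemia inhibitory factor, oncostatin M and colony stimulating factor genes and their receptors. They numbered 101 genes, each with 1 probe, of 4605 genes named on 5030 probes. Intensities could be recovered for 98 of the 101. The other 3, Cxcl1, Il5 and Lif, had only a standardized score.

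Each array was hybridized with labelled cDNA from a pool of 8 whole bladders of female mice, and there was 1 array per condition and no replicate. WT mice were C57bl6 (C57BL/6J in the methods), and in PAR1-/- mice the receptor gene is disrupted in all cells. In each genotype 1 array was made 24 h after saline, 1 each at 4 and 24 h after LPS at 100 µg/ml, and 1 each at 4 and 24 h after substance P (SP), the neuropeptide of sensory nerves that acts through the neurokinin receptors. The labels give SP at 10 µM for WT and at 20 µM for PAR1-/- arrays, whereas the methods give 10 µM for all mice. A ratio at 4 h therefore compares with saline at 24 h, and no ratio between 2 arrays has a p-value.

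Chemokines are small secreted proteins that bind G protein-coupled receptors on leukocytes and guide them from blood into tissue. CC chemokines such as Ccl2 and Ccl7 attract mainly monocytes, Ccl11 and Ccl24 attract eosinophils, and CXC chemokines such as Cxcl1 and Cxcl2 attract neutrophils. Interleukins signal largely through paired receptor chains and JAK kinases, and IL-1 through the same adaptor that serves the LPS receptor Tlr4. LPS is a classical inducer of Il1b, Il6, Cxcl1 and Cxcl2, most of them through NF-κB.

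Total intensity per array ran from 67003 to 251484, and between 29.1% and 47.8% of all probes were above background on 9 arrays. The array of WT after LPS at 24 h stood apart. Of its values 87.6% were 15 and the next value was 29, so that 12.1% of probes counted as above background there. Before normalization the median ratio to saline over all probes was between 1.04 and 4.23 in the 8 comparisons, so every level below depends on the normalization between arrays. F2r, the PAR1 gene, read 10, 195, 15, 22 and 11 on the WT arrays (saline, LPS at 4 and 24 h, SP at 4 and 24 h) and 11, 17, 18, 51 and 21 on the PAR1-/- arrays in that order. The probe was above background on 4 arrays, 3 of them PAR1-/-, and its place relative to the disrupted part of the gene is not stated, so it does not check the genotype labels. Of the bladder's own markers, Upk2 of the urothelium was above background on 4 arrays and Dcn of fibroblasts on none, whereas Cdh1 of epithelia, Vim of fibroblasts and Acta2 of smooth muscle were on all 10. Within 34 pairs of probes named for the same gene, mean log2 intensity had a correlation of -0.19, a description over probes with no p. The 5 of these pairs with both probes above background on at least 4 arrays had a median correlation of 0.23 over the 10 arrays, beside 0.25 for all pairs of probes. The gene names below are those of the probe table, whose names may not match the rows of the value table, and whether each probe reports its named gene was not tested further.

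Above background means more than 3 SD over the mode of the array's low values, a threshold of 12.3 to 23.2 on 9 arrays and of 29 on WT LPS at 24 h. On most arrays the members were near background. Of the 98 members, 32 (32.7%) were above background on no array, beside 34.1% of all probes, and 9 (9.18%) were above it on all 10, beside 10.3% of all probes. Members above background numbered 28 on each saline array. After challenge they numbered 43 (LPS, 4 h), 11 (LPS, 24 h), 34 (SP, 4 h) and 21 (SP, 24 h) in WT, and 43, 28, 45 and 32 in PAR1-/- bladders in the same order. The 4 h arrays had the most members above background in both genotypes, as they did of all probes.

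**Figure D1:**
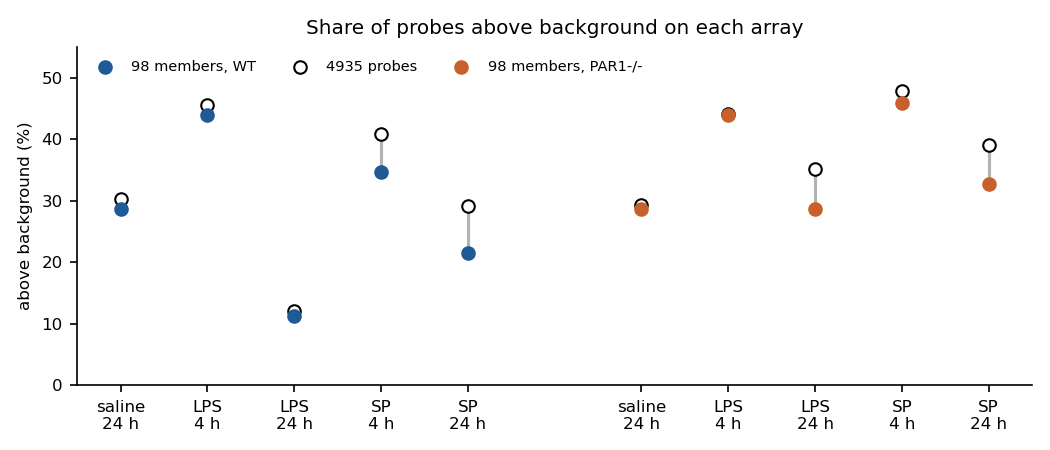
Share of the 98 members (filled) and of all 4935 probes (open) above background on each array, in percent, with WT arrays on the left and PAR1-/- arrays on the right. The member share ran from 11.2% to 45.9% and stayed at or below the share of all probes on every array.

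The best known LPS-induced cytokines were among the members that stayed at background. Il1b, the macrophage pyrogen, read between 8 and 16 on the 10 arrays, and its relative Il1a between 8 and 18. Il6, the inducer of the acute phase response, read between 9 and 23, and its highest value was on WT SP at 4 h, where the threshold was 23.1. Cxcl2, a neutrophil attractant, read between 10 and 23. Il10, the cytokine that restrains macrophages, read between 10 and 21, Csf3, which drives neutrophil production, between 10 and 19, Il1rn, the antagonist of IL-1, between 9 and 20, and Il6st, the gp130 chain shared by the IL-6 family, between 9 and 16. None of these was above background on any array, so neither a change nor its absence was detectable at these intensities. Il4 was above background on the WT saline array alone (13) and Il13 on PAR1-/- SP at 4 h alone (24). Both are cytokines of type 2 T cells.

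The promoters of several of these genes hold a form of the NF-κB site. RefSeq promoters of build GRCm38.p6 were given for 77 of the 101 members. The letters GGGNNNTTCC, searched on both strands in the 250 bases before the start, occurred in 15 of the 93 promoters of members (16.1%) and in 4.65% of all 32851 promoters. The windows below are shown because they belong to the 3 LPS-inducible genes Cxcl1, Cxcl2 and Il6 and to 3 members that were above background on 6 or more arrays, Ccl9, Ccl20 and Ccr6. Capitals mark the matches, and a run of 11 capitals is an overlapping match on both strands. Each runs 5′ to 3′ on the gene's strand.
Cxcl1 (chr5:90891131-90891209, plus strand): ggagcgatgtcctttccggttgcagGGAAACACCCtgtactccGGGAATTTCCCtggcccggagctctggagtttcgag
Cxcl2 (chr5:90903777-90903855, plus strand): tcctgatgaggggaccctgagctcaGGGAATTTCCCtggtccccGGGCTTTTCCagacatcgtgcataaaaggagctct
Il6 (chr5:30013045-30013104, plus strand): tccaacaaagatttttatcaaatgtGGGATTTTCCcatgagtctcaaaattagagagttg
Ccl9 (chr11:83578637-83578696, minus strand): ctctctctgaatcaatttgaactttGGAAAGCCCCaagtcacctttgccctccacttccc
Ccl20 (chr1:83116661-83116720, plus strand): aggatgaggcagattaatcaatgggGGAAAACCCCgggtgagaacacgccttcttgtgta
Ccr6 (chr17:8242420-8242479, plus strand): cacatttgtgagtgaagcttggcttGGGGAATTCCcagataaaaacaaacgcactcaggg
Cxcl1 had no recovered intensity. Its score, which ranks the arrays within a probe, was 0.719, 1.30, 0.958, 1.40 and 0.729 on the WT arrays in the order above and 0.790, 1.05, 1.15, 1.09 and 1.05 on the PAR1-/- arrays. The 2 highest scores were those of WT at 4 h after SP and LPS, and the 3 lowest those of both saline arrays and of WT SP at 24 h. Scores are not normalized between arrays, and the same 3 arrays had the lowest total intensity of the 10.

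Next, the ratio of each challenged array to saline of the same genotype was taken after normalization, a robust regression of each array on the mean of the 10 over the 509 probes that exceeded background everywhere. Where saline was under background the ratio is a lower bound ("at least"), and where the challenged array was under it, an upper bound ("at most"). In bulk tissue fewer cells of a type and less RNA per cell cannot be told apart. Of 45 members with a value in WT, 1 was above 3-fold in at least 1 of 4 comparisons (Il17a), beside 6.78% of all probes, and 3 were below 1/3 (Ccl7, Cxcl14 and Csf1r), beside 1.72%. Of 36 members with a value in PAR1-/- bladders, 1 was above 3-fold (Ccl11), beside 3.03%, and 0 were below 1/3, beside 2.83%. These shares follow from 1 array on each side and carry no test.

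The median ratio of the members tracked that of all probes. Before normalization the members' medians were 1.95 (LPS, 4 h), 1.60 (LPS, 24 h), 3.66 (SP, 4 h) and 0.897 (SP, 24 h) in WT, beside 1.94, 1.94, 3.12 and 1.04 for all probes. In PAR1-/- bladders they were 2.20, 2.55, 3.61 and 2.7 beside 2.21, 2.28, 4.23 and 2.38. After normalization the members' medians lay between 0.802 and 1.14, and those of all probes between 0.877 and 1.03. Without normalization 19 members of 54 in WT exceeded 3-fold in at least 1 comparison, beside 39% of all probes, and 25 of 52 in PAR1-/- bladders, beside 51.2%. None was below 1/3 there, beside 0.106% and 0.111% of all probes.

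**Figure D2:**
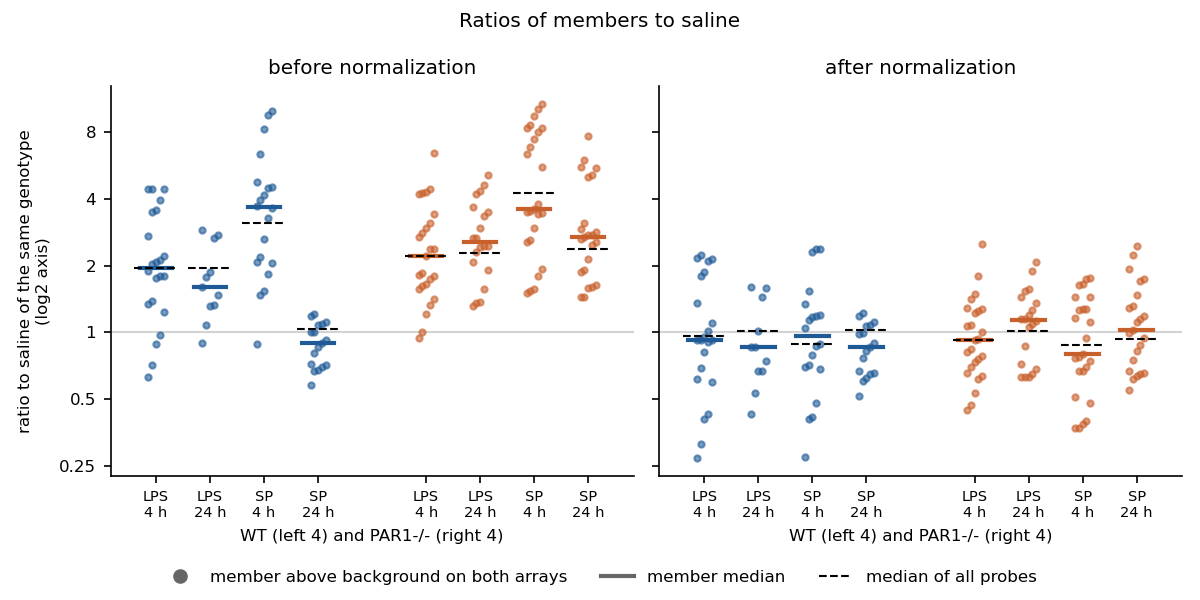
Ratio to saline of the same genotype (log2 axis) of members above background on both arrays, before (left) and after (right) normalization, in WT (blue) and PAR1-/- (orange). Thick lines are member medians and dashed lines the median of all probes. After normalization both medians lie near 1 in all 8 comparisons.

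Among CC chemokines, 10 of 19 were above background on at least 4 arrays. Ccl2, the main attractant of monocytes, read 28, 124, 81, 277 and 31 on the WT arrays (saline, LPS at 4 and 24 h, SP at 4 and 24 h) and 31, 133, 104, 246 and 173 on the PAR1-/- arrays. Its normalized ratios were 2.16, 1.60, 2.31 and 1.11 in WT and 1.42, 1.15, 1.27 and 1.73 in PAR1-/- bladders. All 8 were above 1, and they stayed so under the other 3 scalings tried (a shift per array, quantiles, subtraction of background) and with none. The 4 h ratios were higher in WT and the 24 h ratio of SP was higher in PAR1-/-.

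Ccl4, which attracts monocytes and T cells, read 29, 128, 77, 184 and 26 in WT and 26, 109, 112, 277 and 200 in PAR1-/- bladders. Its ratios were 2.14, 1.45, 1.54 and 0.862 in WT and 1.49, 1.54, 1.76 and 2.46 in PAR1-/- bladders, so that WT after SP at 24 h was the 1 comparison below saline. The CC chemokines Ccl3 and Ccl5 were above background on 2 arrays and 1 array. Ccl3 read between 11 and 23, and Ccl5 between 9 and 23.

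Ccl7, which draws monocytes and shares the receptor Ccr2 with Ccl2, ran the other way in WT. It read 38, 24, 56, 23 and 27 in WT and 19, 34, 26, 29 and 31 in PAR1-/- bladders. The normalized ratios were 0.272, 0.741, at most 0.178 and 0.654 in WT, and 0.780, 0.652, 0.371 and 0.672 in PAR1-/- bladders. WT saline had the highest normalized Ccl7 of all arrays. The WT ratios at 4 h were below 1 under every scaling and with none (0.632 and at most 0.608), whereas all 4 PAR1-/- ratios were above 1 without normalization, between 1.37 and 1.79.

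Ccl11, the eosinophil attractant eotaxin, read 14, 25, 15, 29 and 11 in WT and 11, 58, 92, 142 and 68 in PAR1-/- bladders. In PAR1-/- bladders the 4 challenged arrays were at least 2.13, 3.26, 2.48 and 2.32 times saline, which was under background. In WT, the ratios were 0.928 (LPS, 4 h), 0.713 (SP, 4 h) and at most 0.868 (SP, 24 h), and LPS at 24 h was under background, as saline nearly was. The 4 challenged PAR1-/- arrays were higher than every WT array on the normalized scale. The bounds in PAR1-/- stayed above 1 under every scaling, and the LPS 24 h bound was between 2.58 and 7.81. Ccl24, another eosinophil attractant on the same receptor, read 14, 25, 15, 37 and 9 in WT and 18, 18, 18, 28 and 26 in PAR1-/- bladders and did not share this pattern: in PAR1-/- bladders its ratios were 0.473, at most 0.553, 0.385 and 0.614. Without normalization these were 1.0 (LPS, 4 h), 1.56 (SP, 4 h) and 1.44 (SP, 24 h), with no value for LPS at 24 h.

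Ccl9, a macrophage product, was above background on all arrays. It read 38, 51, 34, 124 and 46 in WT and 34, 95, 65, 252 and 93 in PAR1-/- bladders, with normalized ratios of 0.595, 0.429, 0.790 and 1.22 in WT and 0.938, 0.686, 1.16 and 0.875 in PAR1-/- bladders. Its ratios were lowest after LPS at 24 h in both genotypes. Ccl20, the ligand of Ccr6, was above background in WT on saline (17) and LPS at 4 h (21) and in PAR1-/- bladders on the 4 challenged arrays (27 to 39) but not on saline (10). After normalization its PAR1-/- ratios were at least 1.07 (LPS, 4 h), 1.17 (LPS, 24 h) and 1.07 (SP, 24 h). No bound separated PAR1-/- SP at 4 h from saline. Ratios in WT were 0.615 (LPS, 4 h) and at most 0.936 (LPS, 24 h), 0.463 (SP, 4 h) and 0.689 (SP, 24 h).

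**Figure D3:**
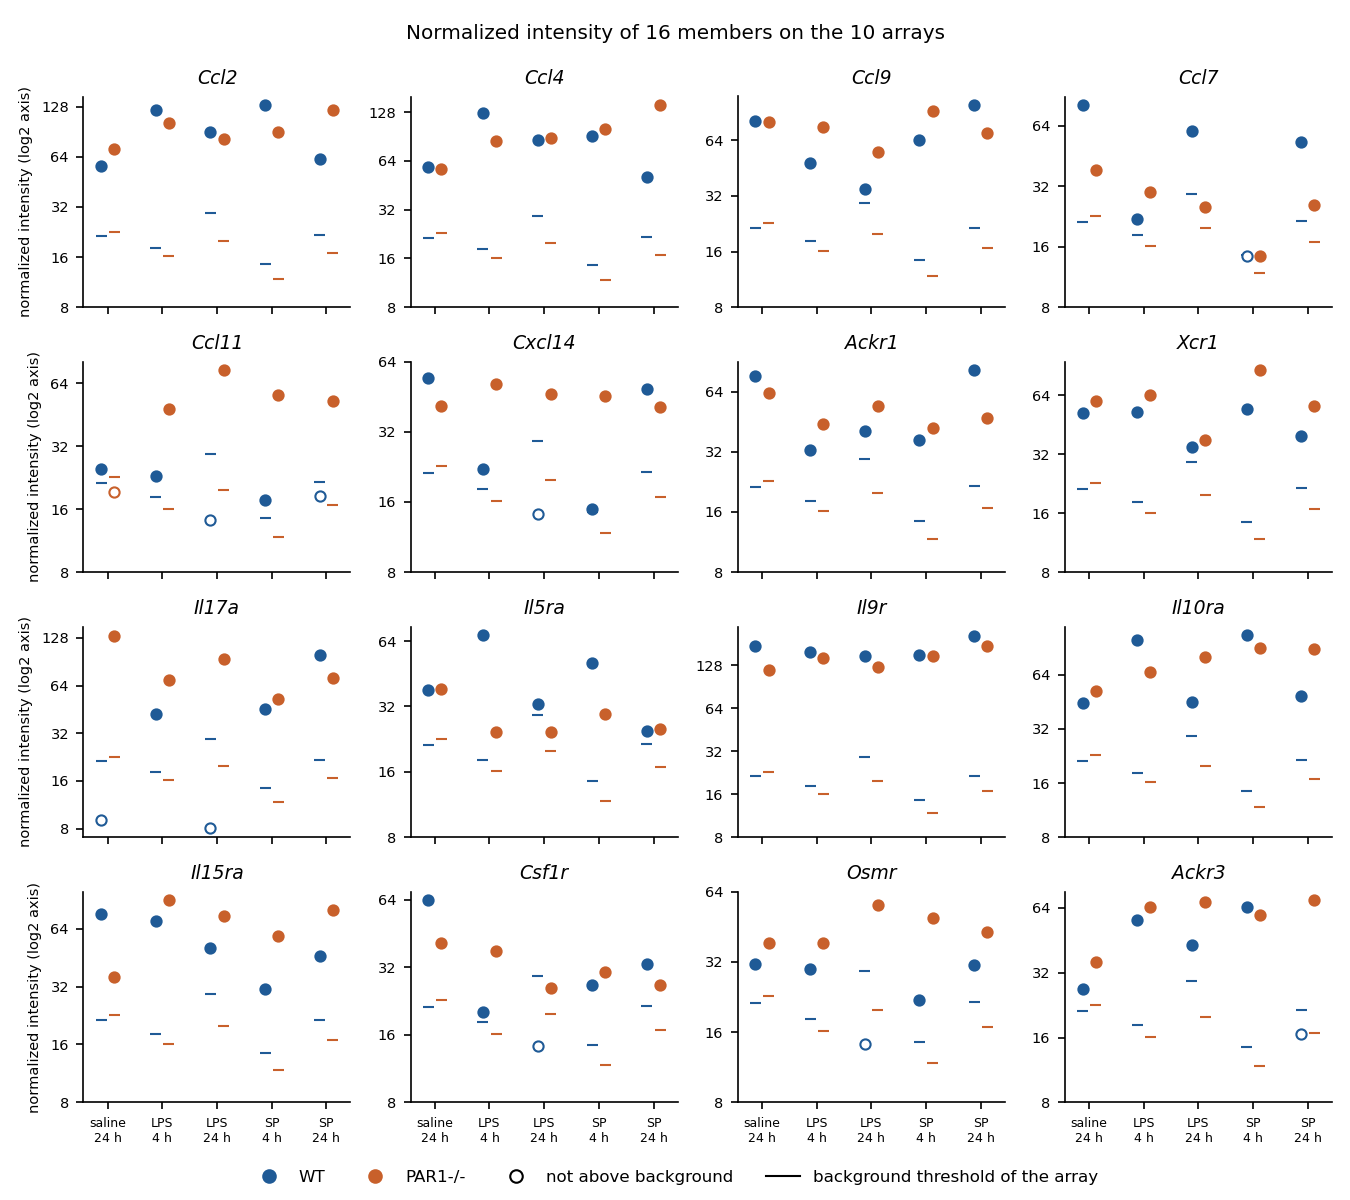
Normalized intensity (log2 axis) of 16 members on the 10 arrays, 1 point per array, WT in blue and PAR1-/- in orange. Open points are not above background and short bars mark the threshold of that array. Ccl11 separates the challenged PAR1-/- arrays from all WT arrays, and Ccl7 and Csf1r are highest on WT saline.

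Of the CXC and other chemokines, 5 of 9 with intensities were above background on at least 4 arrays and 0 of 9 on all. Cxcl14, which epithelia secrete constitutively, read 27, 24, 15, 24 and 25 in WT and 20, 62, 53, 111 and 51 in PAR1-/- bladders. The WT ratios were 0.408, at most 0.540, 0.276 and 0.896, and those in PAR1-/- bladders 1.25, 1.13, 1.11 and 0.991. The WT ratios at 4 h stayed below 1 under every scaling and were 0.889 after both agents without one. In PAR1-/- bladders the ratios after LPS at 24 h and SP at 4 h fell to 0.930 and 0.922 under another scaling. Cxcl12, the stromal ligand of Cxcr4, was above background on 4 arrays, WT after LPS and SP at 4 h (21 and 31) and PAR1-/- likewise (17 and 24), but no bound separated it from saline.

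Xcl1, lymphotactin, was above background on 7 arrays. It read 14, 49, 15, 52 and 11 in WT and 11, 74, 33, 30 and 50 in PAR1-/- bladders, with ratios of 1.87 and 1.20 at 4 h in WT and of at least 2.65 (LPS, 4 h), 1.35 (LPS, 24 h) and 1.76 (SP, 24 h) in PAR1-/- bladders. In WT the ratio after SP at 24 h was at most 0.868, and that after SP at 4 h fell to 0.925 under another scaling. Cxcl15, a chemokine of epithelia, read 21, 57, 15, 87 and 18 in WT and 16, 29, 47, 109 and 50 in PAR1-/- bladders, with ratios of 1.35, at most 0.729, 1.17 and 0.822 in WT and of 0.841, 1.35, 1.45 and 1.29 in PAR1-/- bladders. Its WT ratio after SP at 4 h fell to 0.961 under another scaling. Cxcl5, a neutrophil attractant of epithelia, was above background on PAR1-/- LPS at 4 h alone (55), at least 2.03 times saline.

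Among chemokine receptors, 7 of 16 were above background on at least 4 arrays. Ackr1, the Duffy antigen receptor that binds and transports chemokines on venules, read 36, 35, 39, 66 and 39 in WT and 28, 52, 64, 101 and 60 in PAR1-/- bladders. Its ratios were 0.429, 0.531, 0.481 and 1.07 in WT and 0.699, 0.865, 0.670 and 0.751 in PAR1-/- bladders. The WT ratio after SP at 24 h fell to 0.964 under another scaling, and without normalization 7 of the 8 ratios were above 1. Ackr3, a scavenger of Cxcl12, read 15, 59, 41, 124 and 10 in WT and 18, 80, 83, 150 and 92 in PAR1-/- bladders. Its ratios were 2.09, 1.59, 2.38 and at most 0.800 in WT and between 1.65 and 1.93 in PAR1-/- bladders, and each kept its direction under every scaling and with none. Xcr1, the receptor of Xcl1 on cross-presenting dendritic cells, read 26, 55, 34, 103 and 21 in WT and 27, 80, 42, 231 and 73 in PAR1-/- bladders. Its normalized level was higher in PAR1-/- than in WT in 5 of 5 pairs of the same agent and time. The SP pairs were at unlike doses by the labels. Cxcr2, the neutrophil receptor of Cxcl1 and Cxcl2, was above background on 3 arrays, WT LPS at 4 h (30) and PAR1-/- LPS at 24 h (23) and SP at 4 h (31).

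Of the interleukin ligands, 2 of 18 with intensities were above background on at least 4 arrays, Il16 and Il17a, and 8 on none. Il17a, the cytokine of Th17 and γδ T cells, read 6, 45, 9, 84 and 46 in WT and 50, 87, 121, 130 and 95 in PAR1-/- bladders. In WT it was at least 1.99 (LPS, 4 h), 2.13 (SP, 4 h) and 4.66 (SP, 24 h) times saline. In PAR1-/- bladders it was 0.533, 0.719, 0.401 and 0.548 of saline, and each of these was above 1 without normalization, between 1.74 and 2.60. Il17a was under background on WT saline and on WT LPS at 24 h alone. The WT values rest on unusual readings: 6 was the lowest value of the WT saline array, and Il17a was 1 of 12 probes that read 9, below the common value of 15, on WT LPS at 24 h, of which 11 also read 6 on WT saline. With the mean of both saline arrays as the reference no WT ratio of Il17a exceeded 3.

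Il5 had no intensity. Its score was highest on WT SP at 4 h (1.43), next on PAR1-/- SP at 4 h (1.27), and lowest on WT saline (0.720) and PAR1-/- saline (0.774). Scores are not normalized between arrays. Both SP arrays at 4 h also had the highest total intensity, and both saline arrays the lowest. Lif, a cytokine of the IL-6 family that acts through gp130, also had no recovered intensity. Its score was 1.76 on WT SP at 4 h and 1.24 on WT LPS at 24 h, and between 0.817 and 1.01 on the other 8 arrays. Lif thus stood out on 1 array, with no second array to check it.

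The interleukin receptors included 4 of the 9 members that were above background everywhere. Il10ra, the ligand-binding chain for Il10, read 23, 102, 43, 219 and 25 in WT and 24, 82, 101, 242 and 120 in PAR1-/- bladders. Its ratios were 2.22, 1.01, 2.37 and 1.08 in WT and 1.28, 1.56, 1.73 and 1.71 in PAR1-/- bladders. The WT ratios were above 2 at 4 h and near 1 at 24 h, whereas those of PAR1-/- bladders lay between 1.28 and 1.73. The ratio of WT LPS at 24 h fell to 0.998 under another scaling.

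Il15ra, which presents Il15 to neighbouring lymphocytes, moved in opposite ways in the genotypes. It read 36, 73, 48, 55 and 24 in WT and 18, 116, 92, 149 and 108 in PAR1-/- bladders. The ratios were 0.922, 0.667, 0.409 and 0.607 in WT and 2.50, 2.07, 1.64 and 2.24 in PAR1-/- bladders, and their directions were the same under all 4 scalings. Without normalization 3 of the 4 WT ratios were above 1 (between 1.33 and 2.03), and those of PAR1-/- bladders were between 5.11 and 8.28. Its saline level was lower in PAR1-/- than in WT, and its level on each challenged array was higher.

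Il5ra, the eosinophil receptor chain for Il5, read 20, 71, 32, 95 and 14 in WT and 19, 27, 25, 67 and 30 in PAR1-/- bladders. Its ratios were 1.80, 0.860, 1.34 and 0.648 in WT and between 0.630 and 0.766 in PAR1-/- bladders, with the WT ratio of LPS at 24 h turning to 1.04 under another scaling. Without normalization the PAR1-/- ratios were between 1.32 and 3.53. Il9r, the receptor chain for the mast cell growth factor Il9, read 72, 159, 128, 325 and 86 in WT and 46, 195, 169, 432 and 253 in PAR1-/- bladders. Its ratios were 0.909, 0.859, 0.868 and 1.19 in WT and 1.22, 1.06, 1.26 and 1.48 in PAR1-/- bladders, and the WT ratios at 4 h turned to as much as 1.06 and 1.12 under another scaling.

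Some receptors were above background on few arrays. Il1r1, the signalling receptor of IL-1, was so in WT at 4 h after LPS (51) and SP (72) alone, at least 2.27 and 1.86 times saline, and read between 11 and 17 on the PAR1-/- arrays. Il2rb, a chain shared by the receptors of Il2 and Il15, was so on WT LPS at 4 h alone (64), at least 2.87 times saline. Il12rb2, a chain of the Il12 receptor on Th1 and natural killer cells, was instead above background on 7 arrays. These included every PAR1-/- array but not WT saline. It was at least 2.31 times saline on WT LPS at 4 h and at least 1.46 times on WT SP at 4 h. In PAR1-/- bladders its ratios were between 0.755 and 1.20.

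In the IL-6 family, Osmr, the oncostatin M receptor, was above background on 9 arrays. It read 17, 32, 15, 37 and 17 in WT and 19, 45, 66, 121 and 54 in PAR1-/- bladders. On the normalized scale PAR1-/- was higher in 5 of 5 pairs of the same agent and time, the SP pairs at unlike labelled doses. Il11ra2, a duplicate of the Il11 receptor gene, read 14, 16, 15, 23 and 11 in WT and 18, 17, 16, 27 and 15 in PAR1-/- bladders. It was above background on both saline arrays and on PAR1-/- LPS and SP at 4 h, and its PAR1-/- ratios were 0.449, at most 0.553, 0.373 and at most 0.468. Without normalization the PAR1-/- ratios at 4 h were 0.944 (LPS) and 1.5 (SP), and those at 24 h had no value. Il11ra2 and the other near-identical copies of this receptor gene may share hybridization.

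Of the colony stimulating factors, Csf1 was above background on 1 array (PAR1-/- LPS at 4 h, 19). Its receptor Csf1r, on which macrophages depend, read 31, 22, 15, 46 and 18 in WT and 20, 44, 27, 70 and 32 in PAR1-/- bladders. The ratios were 0.316, at most 0.459, 0.417 and 0.517 in WT and 0.921, 0.631, 0.746 and 0.649 in PAR1-/- bladders. All 8 were below 1 under each of the 4 scalings, but without normalization WT SP at 4 h (1.48) and all PAR1-/- ratios (1.35 to 3.50) were above it. Csf3r, the neutrophil receptor for Csf3, was above background on PAR1-/- LPS and SP at 4 h (17 and 32) alone.

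**Figure D4:**
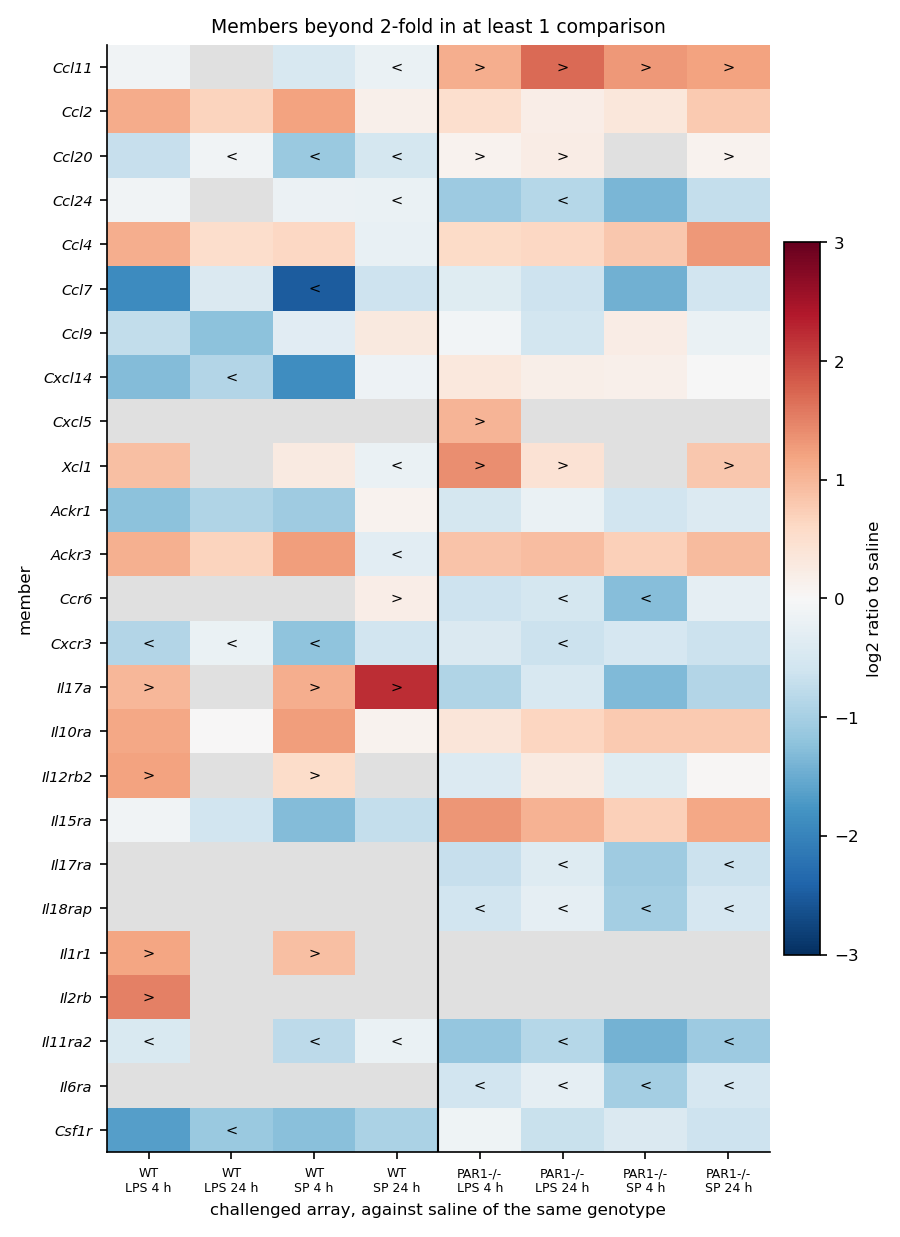
Log2 ratio to saline of the same genotype for the 25 members beyond 2-fold in at least 1 of the 8 comparisons, ordered by role. Colours run from lower (blue) to higher (red), > marks a lower bound, < an upper bound, and grey no value. Ccl2, Ccl4, Ackr3 and Il10ra are mostly above saline in both genotypes, and Il15ra is red in PAR1-/- and blue in WT. In single comparisons 2.53% to 14.0% of all probes with a value were more than 2-fold higher and 1.6% to 15.3% more than 2-fold lower. The share of all probes over the 8 comparisons together is not given here, so the 25 are not set against other probes.

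Across arrays, 28 members that were above background on at least 4 arrays and not at a common floor throughout were tested with limma among 1538 probes. The error of these tests is the spread between pools of different conditions, since no condition was repeated. Genotypes were paired by agent and time, and by the labels SP was at 10 µM in WT and at 20 µM in PAR1-/-. On the SP arrays genotype and labelled dose therefore cannot be told apart, in the genotype test and in the interaction. For genotype (PAR1-/- minus WT, paired by condition), 0 of 28 members passed an adjusted p of 0.05, beside 0% of all probes, and 5 (17.9%) had an unadjusted p below it, beside 8.06% of all probes. Osmr differed by 0.56 on the log2 scale (SE 0.11, adjusted p = 0.39), Ccl11 by 0.77 (SE 0.20, adjusted p = 0.49), and Xcr1 by 0.36 (SE 0.10, adjusted p = 0.51), all higher in PAR1-/-. Ccl7 was lower by -0.59 (SE 0.22, adjusted p = 0.60) and Il9r by -0.25 (SE 0.09, adjusted p = 0.60). Il9r was lower in 5 of 5 pairs, but its difference was 0.40 without normalization, with the opposite sign.

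For challenge against saline, 0 of 28 members passed beside 0.91% of all probes, and 7 (25%) had an unadjusted p below 0.05, beside 11.0% of all probes. Csf1r differed by -0.73 (SE 0.16, adjusted p = 0.12), and its difference was 0.29 without normalization. Ccl7 differed by -0.69 (SE 0.29, adjusted p = 0.44). Ackr3 was higher by 0.76 (SE 0.25, adjusted p = 0.36), under every scaling and with none. For 24 h against 4 h 0 of 28 passed beside 0% of all probes, and 1 had an unadjusted p below 0.05, beside 5.01% of all probes. This was Xcr1 at -0.61 (SE 0.06, adjusted p = 0.76), lower at 24 h with both agents in both genotypes. For LPS against SP 0 of 28 passed beside 0%, and Xcr1 was again the 1 member with an unadjusted p below 0.05 (-0.31, SE 0.11, adjusted p = 0.80), beside 2.67% of all probes.

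For the interaction of genotype and challenge, 2 of 28 members passed, beside 2.6% of all probes. Ccl24 and Il11ra2 both had a log2 difference of -0.30 (SE 0.04, adjusted p = 0.012), so that their change with challenge was lower in PAR1-/- than in WT. Each was over the common floor of 29.3 on 1 of 10 arrays, PAR1-/- saline, and at the floor on the other 9. With the floor of each array, with no floor, or on the deposited scores both had an adjusted p of 1.0. The interactions of Il15ra (1.74, SE 0.58, adjusted p = 0.35), Ccl11 (0.97, SE 0.28, adjusted p = 0.25) and Csf1r (0.70, SE 0.21, adjusted p = 0.27) were larger and did not pass. Those of Ccl11 and Csf1r rest partly on floor values, as these were over the floor on 4 and 5 of 10 arrays. Each genotype has 1 saline array, and all interactions rest on that pair.

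Of the JAK, STAT and SOCS genes, which carry and restrain the signal of interleukin receptors, 15 had intensities. On each saline array 9 of them were above background, 3 were so on all arrays and 5 on none. Of the 15, 9 had a value in WT and 10 in PAR1-/- bladders. Of all probes with a value, 6.78% were above 3-fold in WT and 3.03% in PAR1-/- bladders. Jak3, the kinase bound to the common γ chain of interleukin receptors, was the 1 gene of that list beyond 3-fold. It read 31, 267, 113, 577 and 41 in WT and 23, 205, 333, 411 and 210 in PAR1-/- bladders, with ratios of 4.24, 2.04, 3.93 and 1.36 in WT and 3.06, 4.57, 2.89 and 3.0 in PAR1-/- bladders. Of 12 genes of IL-1 and Tlr signalling, 5 had a value in each genotype. Of these 0 were above 3-fold, and Map3k7 was below 1/3 in PAR1-/- bladders (at most 0.269 after SP at 4 h), beside 2.83% of all probes. In the interaction test Rel passed (0.46, SE 0.04, adjusted p = 0.0020), 1 of 5 genes of this list tested, beside 2.6% of all probes. Rel was over the common floor on 1 of 10 arrays, WT saline. Of 7 chemokine receptor signalling genes 0 passed any of these rules. Only 1 of them had a value in WT, 0 had one in PAR1-/- bladders and 0 were tested with limma. The rules could therefore hardly call a gene of this list.

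Marker lists of other cell types were summed on each array. Neutrophil probes above background numbered 2 to 3 of 8 on the saline arrays and 0 to 6 on the challenged arrays, and their summed normalized intensity was 177 to 182 on saline and 101 to 180 after challenge. By probe, Cybb was above background on 9 arrays, S100a9 on 7 and Prtn3 on 5. Camp was so on 3, Ltf on 2, Elane and Ngp on 1 each, and S100a8 on none. Of 5 macrophage probes 1, Fcgr1, was above background on each of the 10 arrays, and Cd68, Cd14, Mrc1 and Lyz1 on none. Their summed intensity was 84.1 on both saline arrays and 46.1 to 120 after challenge. T cell probes above background numbered 1 to 2 of 6 on saline and 0 to 2 after challenge. Mast cell probes had a summed intensity of 125 to 150 on saline and of 84.1 to 118 after challenge, with 2 of 7 probes above background on each saline array and 0 to 3 after challenge. Smooth muscle probes summed to 169 and 467 on the saline arrays and to 156 to 338 after challenge. All these sums include probes under background. The normalized background threshold was 21.4 on WT saline and 22.8 on PAR1-/- saline. On the challenged arrays other than WT LPS at 24 h it was 11.8 to 21.6. A lower sum after challenge therefore does not by itself show fewer cells of a type. The part of cell content in the ratios above was not tested.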

How the data were processed

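The spots of the Atlas plastic arrays had been quantified by the authors with AtlasImage. The deposited values are scores: the log2 of each has a mean of 0 and the same SD (0.33330 to 0.33337) over the 10 arrays of a probe, a standardization read from the values. Whole-number intensities that give these scores were searched up to 3000, which recovered 4935 of 5030 probes. On simulated data 99.8% of 2000 probes were recovered. The design text places the arrays in the genotypes. Background was the mode plus 3 SD, and on WT LPS at 24 h the next value after the commonest, 29. Arrays were scaled by robust regression (MASS 7.3.60.0.1) on the mean array over 509 probes above background everywhere. Contrasts were fitted with limma 3.58.1 on probes above background on at least 4 arrays, with values raised to a common floor, and adjusted over 1538 probes (Benjamini-Hochberg); the fits were tested on simulated data. No condition was repeated, so a ratio has no known precision.

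The platform's table gave 1 gene for 4633 probes, several for 5 and no gene for 392. The members and lists were chosen with earlier results of these data known. Values on every array were given for members past a limma threshold or beyond 3-fold and for those above background on all 10 arrays. A fixed list of well known cytokines and receptors was also described. Its other genes were given as ranges, as scores or on the arrays where they were above background. Osmr, Ackr3, Ccl20, Xcl1, Cxcl5, Cxcl15, Il2rb and Il12rb2 fall outside these rules and that list and were chosen after their values were seen. Ccr2, Cxcr4, Cxcl10, Osm and Csf2 were not analysed here. The alternatives changed the normalization, background, floor, filter, fold, saline reference and arrays used. Versions were Python 3.11.15 and R 4.3.3.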

Additional observations from a re-analysis of the deposited data

Results flagged for a closer look

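Both Ccl24 and Il11ra2 had an interaction of genotype and challenge of -0.30 on the log2 scale that passed the limma test. Each was over the common floor on 1 array alone, PAR1-/- saline. Neither passed with the floor of each array, with no floor or on the deposited scores. Il15ra and Osmr had ratios to saline that ran one way in all 4 WT comparisons and the other way in all 4 PAR1-/- comparisons, and the difference of the mean log2 ratios was 1.74 for Il15ra and 0.44 for Osmr. The limma interaction gave an adjusted p of 0.35 for Il15ra and of 0.96 for Osmr, whose lowest PAR1-/- ratio was 1.00. Under other scalings 3 ratios of Osmr turned: PAR1-/- LPS at 4 h reached 0.805, PAR1-/- SP at 24 h moved from 1.11 to 0.935, and WT SP at 24 h from 0.987 to 1.01.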

How the results depend on the processing

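The ratio counts depended on the scaling and the size of change. With no normalization 39% of all probes were above 3-fold in WT and 51.2% in PAR1-/- bladders. For the counts under the other alternatives the share of all probes is not given here. Those counts therefore do not set members against other probes. Members above 3-fold in WT numbered 1, and 19 with no normalization, 7 with the background mode subtracted, 2 with a threshold of 2 SD, 8 at 2-fold and 0 with the mean of both saline arrays. Members below 1/3 in WT numbered 3, and 0 with no normalization, 8 with the background mode subtracted and 8 at 2-fold. In PAR1-/- bladders, members above 3-fold numbered 1, and 25 with no normalization, 0 with a shift per array, 4 with the background mode subtracted, 2 with a threshold of 2 SD and 5 at 2-fold. Members below 1/3 numbered 0 there, and 8 with a shift per array, 8 with the background mode subtracted, 8 at 2-fold and 1 with the mean of both saline arrays. Without WT LPS at 24 h the WT counts were 1 and 3. Single ratios beyond 3-fold kept their direction under the alternatives tried. Calls for genotype, time and stimulus stayed at 0 under all alternatives. Members changed with challenge numbered 2 with a shift per array (Csf1r, Cxcr3) and 0 to 2 with 1 array left out: 2 without either saline array, 1 without WT SP at 24 h (Ackr3) and 1 without WT LPS at 24 h with the floor of the other 9 arrays (Cxcr3), a setting chosen after the data were seen. The 2 interaction calls became 0 with no normalization, with the floor of each array, with no floor and on the deposited scores, 1 with quantiles (Csf1r), 4 with a shift per array or an intensity trend, and 2 to 5 with 1 array left out, 5 without WT SP at 24 h. The causes were not tested. No interaction could be fitted without a saline array. Genotypes were paired by agent and time alone, with SP at unlike doses by the labels. No pairing by animal could be made, since every pool came from different mice. Members near background have only bounds, so differences below about the threshold were not detectable.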
